A study of Mus musculus with 12 samples.

Results

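The heterotrimeric G protein subunit genes and the Rgs genes were followed in the brains of mice exposed to chronic unpredictable mild stress (CUMS) and given krill oil. The members were chosen by symbol alone, as the G alpha genes Gnai1 to Gnai3, Gnao1, Gnaz, Gnal, Gnaq, Gna11 to Gna15 and the Gnat genes, the G beta genes Gnb1 to Gnb5, and the genes named Gng or Rgs with a number. The rule found 51 of the 55385 genes of the table, namely 15 G alpha, 5 G beta, 10 G gamma and 21 Rgs genes. Of these, 42 had a mean of at least 0.1 FPKM (sequenced fragments scaled to transcript length and library depth) and were tested, among 21393 tested genes. The other 9 are given by their levels.

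Poly(A) RNA of the whole brain of 12 male wild-type C57BL/6J mice, bought at 8 weeks of age, was sequenced, with 3 mice chosen at random from the 8 of each group and 1 library a mouse. C_W mice had water and no CUMS, C_O mice had krill oil and no CUMS, MS_W mice had water and CUMS, and MS_O mice had krill oil and CUMS. Krill oil was given by gavage at 200 mg/kg per day for 5 weeks, CUMS lasted 4 weeks, and every mouse was perfused with saline before its brain was taken. Values of 3 mice are given in the order of mouse numbers 1, 64 and 70 for C_W, 15, 30 and 72 for C_O, 31, 75 and 95 for MS_W and 13, 46 and 78 for MS_O. In RNA of a whole organ, fewer cells of a type and less RNA per cell cannot be told apart.

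A heterotrimeric G protein couples a receptor of the cell surface to enzymes and channels inside the cell. The activated receptor makes the alpha subunit exchange GDP for GTP, after which alpha and the beta-gamma pair act on separate effectors: Gs and Golf raise cyclic AMP, Gi lowers it, Gq and G11 activate phospholipase C beta, G12 and G13 act on the cytoskeleton, and beta-gamma opens GIRK potassium channels. RGS proteins speed the hydrolysis of GTP on alpha and so end the signal. In the brain these proteins carry the signals of dopamine, serotonin, acetylcholine, opioids and adenosine, and several of them are known for a narrow regional distribution.

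2 of the 12 libraries, C_O72 and MS_W95, differed from the rest in their RNA as a whole. Across genes, their log2 values correlated at r = 0.970 with each other and at most at 0.937 with any of the others, while the other 10 correlated with each other at 0.959 or above. The summed FPKM of 13 cerebellar marker genes was 669 in C_O72 and 1656 in MS_W95 and 66.5 to 137 elsewhere. Gabra6, a receptor subunit of cerebellar granule cells, was at 23.9 and 91.3 FPKM in these libraries, at most at 0.129 in the others, and listed at 0.0001, the value of a gene with no estimate, in 5 of them. Pcp2, Cbln3 and Fat2, named like Gabra6 after their values were seen, were at most at 0.212, 0.196 and 0.114 FPKM in those 10, which are labelled as whole brain like the rest, and 12 listed hindbrain genes summed to at most 0.499 there. The other 9 cerebellar genes, which other regions also express, reached higher values there, such as 3.12 to 5.24 FPKM for Slc1a6 and 7.84 to 26.1 for Calb1. The sum of 13 cortical markers was 188 and 186 in C_O72 and MS_W95 and 282 to 688 elsewhere. Estimated counts per library were 50912906 to 75678721, and each comparison below is given with all 12 libraries and without these 2.

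Among the alpha subunits that the symbol rule takes, the inhibitory class had the highest levels. Gnas, the Gs alpha gene, lies outside the rule and was at 72.3 to 147 FPKM, above Gnai1 in 11 of 12 libraries. Over the 12 libraries Gnai1 had a mean of 61.2 ± 9.04 FPKM (SD, n = 12), Gnao1, the main alpha subunit of neurons, 49.4 ± 6.10, Gnai2 39.8 ± 5.24, Gnaz, the member of the class that pertussis toxin does not modify, 14.9 ± 3.20, and Gnai3 9.28 ± 1.59. Gna11 (33.3 ± 4.83) and Gnaq (22.3 ± 3.10) lay below Gnai2, while Gna12 (26.4 ± 6.54) was more than 3 times its partner Gna13 (7.38 ± 1.19), and Gnal, the alpha subunit of Golf, had 21.3 ± 8.91. Neighbours in this order overlapped in their ranges down to Gna13, which in turn was above Gna15 (0.692 ± 0.136) in 12 of 12 libraries. Gna14 (0.0942) and the photoreceptor transducins Gnat1 (0.0580) and Gnat2 (0.0412) were under the limit for testing, and Gnat3, the taste cell gustducin, was listed at 0.0001 in all 12. The alpha genes summed to 253 to 318 FPKM, the narrowest of the 4 families in relative terms.

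Among the beta subunits Gnb1 (74.7 ± 7.09) was above every other member in 12 of 12 libraries. Its range did not overlap that of Gnb2, but its lowest value, 60.1 in MS_W95, was just below the highest of Gnb5, 60.5 in MS_W75. Gnb2 (45.9 ± 9.72) and Gnb5 (45.6 ± 11.8), the atypical beta subunit that pairs with RGS proteins of the R7 class, could not be ordered, as Gnb2 was higher in 5 of 12 libraries. Gnb4 followed at 3.11 ± 1.17, and Gnb3, known from cone photoreceptors, was at 0.0342. The beta sum was 114 and 123 in C_O72 and MS_W95 and 156 to 193 elsewhere, so both libraries were below all others.

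Gng3, a neuronal gamma subunit, led its family at 147 ± 17.4 FPKM. Gng4 (59.5 ± 60.9), Gng7 (46.3 ± 35.5), Gng13 (34.9 ± 30.6) and Gng2 (30.8 ± 8.09) followed, and Gng4 was above Gng7 in 5 of 12 libraries only. The more widely expressed Gng10 (20.7 ± 5.38), Gng11 (11.3 ± 9.26), Gng12 (10.8 ± 1.53) and Gng5 (6.66 ± 1.77) were lower, and Gng8 was at 0.834 ± 0.530.

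The Rgs genes were ordered less evenly. Rgs4, a regulator of Gi and Gq signals that is abundant in cortical neurons, had 119 ± 54.9 FPKM and made up a median of 46.8% of the summed Rgs FPKM. In the R4 class of small RGS proteins, Rgs8 (16.1 ± 21.1), the pericyte gene Rgs5 (13.04 ± 1.75), Rgs2 (10.96 ± 3.39), Rgs16 (4.83 ± 0.996) and Rgs3 (3.89 ± 1.51) followed, and Rgs13 was at 0.107 ± 0.110. The R7 class held Rgs7 (12.1 ± 2.44), Rgs9 (9.50 ± 8.39), Rgs6 (4.36 ± 1.63) and Rgs11 (4.12 ± 1.24), and the R12 class Rgs10 (15.5 ± 3.36), Rgs14 (10.7 ± 5.87) and Rgs12 (5.42 ± 3.34). Of the RZ class, Rgs19 (5.21 ± 1.35), Rgs20 (5.04 ± 1.77) and Rgs17 (4.74 ± 1.37) differed by less than their spread. Rgs22 (0.0823), Rgs18 (0.0531) and Rgs1 (0.0228), the last 2 known from blood and immune cells, were not tested, and Rgs21, known from taste cells, was listed at 0.0001 in all libraries.

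**Figure D1:**
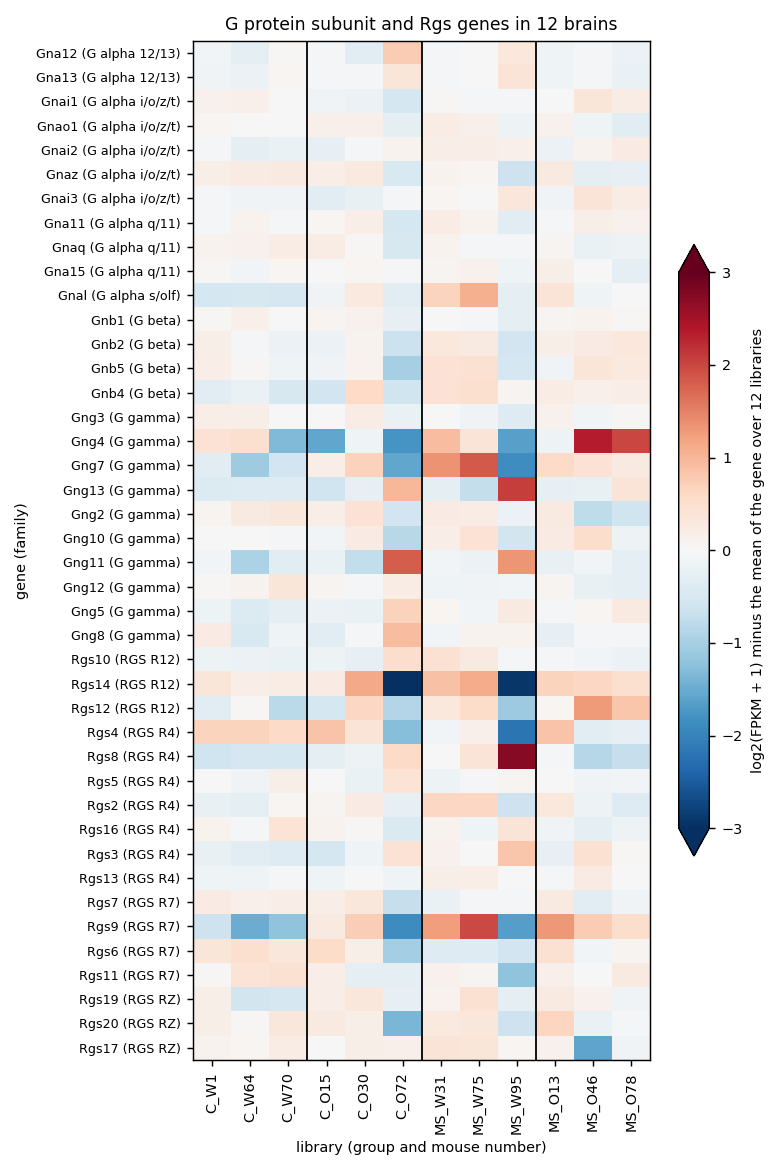
Each row is 1 of the 42 tested genes with its family, each column 1 library, and the colour is log2(FPKM + 1) minus the mean of the gene over the 12 libraries, with colours capped at 3. Rgs14, Rgs4, Gng7 and Rgs9 are low and Rgs8, Gng13 and Gng11 high in C_O72 and MS_W95, and Gng4 is high in MS_O46 and MS_O78.

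Over the 12 libraries, many members spanned a wide range. The ratio of the highest to the lowest library had a median of 2.38 over the 39 members with a mean of at least 1 FPKM and of 1.98 over the 13621 genes of the table at that level, and it was over 5 for 12 members (30.8%) against 13% of all genes. Without C_O72 and MS_W95 the medians were 1.75 and 1.61. One of these 2 libraries was the lowest of the 12 for 22 of the 39 members (56.4%, against 31.6% of all genes) and the highest for 9 (23.1%, against 41.7%). These are descriptions of the 12 libraries with no test.

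The first question was whether CUMS alone changed the members, by MS_W against C_W. No member passed an adjusted p of 0.05 with limma on log2(FPKM + 1) and 12 libraries, where the smallest adjusted p was 0.326, and 1 of 21393 genes (0.00467%) did. At an unadjusted p under 0.05 there were 7 of 42 members (16.7%), against 10.5% of all tested genes. Of these, 6 were higher and 1 was lower in MS_W, while 6.71% of all tested genes were higher and 3.79% lower. The 3 MS_W mice did not overlap the 3 C_W mice for 16 members (38.1%), against 24.6% of all tested genes. Of these, 9 were higher (16.3% of all genes) and 7 lower (8.22% of all genes). The median log2 fold change (log2FC) was 0.07 over the members and 0.06 over all tested genes.

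In the 10 libraries without C_O72 and MS_W95, which leave 2 MS_W mice, 4 members rose in MS_W past the adjusted threshold and none fell, while 246 of 21393 genes (1.15%) passed it. They were Gng7, Rgs9, Gnal and Rgs10, and MS_W95 was the lowest MS_W mouse for each of them. It and C_O72 were left out for their values in these same data, so the calls depend on that choice. At an unadjusted p under 0.05 there were 14 members (33.3%), against 15.4% of all tested genes. Of them, 13 were higher (9.66% of all genes) and 1 was lower (5.69% of all genes), and the median log2FC was 0.16 against 0.04 over all genes.

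Gnal, Gng7 and Rgs9 belong to 1 signalling unit of striatal neurons, in which the Golf alpha subunit, the gamma subunit that pairs with it and an RGS protein of the dopamine and opioid pathways are found together. Gnal, on chromosome 18, was at 13.6, 13.9 and 13.7 FPKM in C_W, 18.6, 24.9 and 15.5 in C_O, 32.5, 42.7 and 16.0 in MS_W, and 26.2, 18.1 and 19.7 in MS_O. All 3 MS_W mice lay above all 3 C_W mice, whose values lay close together, and MS_W95 was by far the lowest of its group. The log2FC of MS_W over C_W was 0.99 (SE 0.30, limma adjusted p = 0.326) with 12 libraries and 1.38 (SE 0.18, limma adjusted p = 0.0135) with 10. Leaving out MS_W95 alone gave 1.38 with an adjusted p of 0.0375.

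Gng7 (ENSMUSG00000048240, chromosome 10, 80948624 to 81014945, minus strand, mm10) was at 28.2, 16.5 and 23.4 FPKM in C_W, 41.3, 57.7 and 11.4 in C_O, 92.6, 131 and 9.11 in MS_W, and 53.7, 48.4 and 43.1 in MS_O. MS_W31 and MS_W75 held the highest 2 values of the 12 libraries and MS_W95 the lowest, so the groups overlapped. The log2FC was 1.11 (SE 0.85, limma adjusted p = 0.635) with 12 libraries and 2.26 (SE 0.24, limma adjusted p = 0.00588) without C_O72 and MS_W95.

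Rgs9 (ENSMUSG00000020599, chromosome 11, 109225355 to 109298129, minus strand) was at 3.90, 1.65 and 2.23 FPKM in C_W, 7.99, 11.4 and 1.03 in C_O, 16.9, 28.6 and 1.39 in MS_W, and 17.3, 11.7 and 9.83 in MS_O. The lowest 2 libraries were C_O72 and MS_W95, and 5 of the 6 krill oil mice lay above every C_W mouse. The log2FC of MS_W over C_W was 1.64 (SE 0.88, limma adjusted p = 0.536) with 12 libraries and 2.73 (SE 0.33, limma adjusted p = 0.0104) with 10. In these fits Gng7, Rgs9 and Rgs10 had an adjusted p of at least 0.163 when any single library was left out, so their calls rest on leaving out both C_O72 and MS_W95.

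The promoters of Gng7 and Rgs9 are shown because both genes followed a similar order of libraries. Each is the 250 bases before the RefSeq start on GRCm38.p6, 5′ to 3′ on the strand of the gene (Gng7 at chr10:81014926-81015175, minus strand, Rgs9 at chr11:109298182-109298431, minus strand), and capitals mark the GC box GGGCGG or its complement CCGCCC and the core of the cyclic AMP response element (CRE), TGACG or CGTCA.
Gng7: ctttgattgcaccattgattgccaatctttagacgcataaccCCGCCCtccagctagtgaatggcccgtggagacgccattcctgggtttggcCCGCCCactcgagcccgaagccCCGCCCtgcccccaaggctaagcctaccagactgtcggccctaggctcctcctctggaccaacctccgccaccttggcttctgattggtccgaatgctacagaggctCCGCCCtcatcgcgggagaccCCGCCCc
Rgs9: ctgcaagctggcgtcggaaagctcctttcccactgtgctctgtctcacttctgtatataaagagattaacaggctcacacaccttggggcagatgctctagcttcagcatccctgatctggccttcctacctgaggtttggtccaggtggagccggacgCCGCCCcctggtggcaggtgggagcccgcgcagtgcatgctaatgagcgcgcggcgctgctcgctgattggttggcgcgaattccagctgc
Gng7 held 5 GC boxes and Rgs9 held 1, and neither held a CRE core. The TATAAA motif was found in the Rgs9 window and not in that of Gng7. A GC box was found in 18 of the 38 members with a promoter searched (47.4%) and in 32.7% of all 32851 promoters, a CRE core in 5 (13.2%) and in 17.8%, and the full CRE TGACGTCA in 0 and in 1.55%. TATAAA or its complement was in 4 members (10.5%) and in 12.4% of promoters, and the median GC content of the window was 59.8% in members and 52.4% in all.

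The summed FPKM of 12 striatal markers (Drd1, Drd2, Adora2a, Ppp1r1b, Pde10a, Tac1, Penk, Gpr6, Rarb, Isl1, Syndig1l and Rasd2) moved with the 3 genes in most libraries. It was 205, 123 and 111 in C_W, 290.4, 459 and 155 in C_O, 729, 1024 and 176 in MS_W, and 615, 451 and 395 in MS_O. C_O72 and MS_W95 had sums above those of C_W64 and C_W70 but the lowest Gng7 and Rgs9 of the 12 libraries. The single markers were divided. Penk, Ppp1r1b, Drd2 and Syndig1l were higher in both than in C_W64 and C_W70, with Penk at 82.8 and 84.9 FPKM against 51.7 and 38.8. Drd1 and Rasd2 were lower in both than in any other library, with Drd1 at 0.0807 and 0.144 FPKM against 2.51 and 2.85 in C_W64 and C_W70. The other markers of the list were not on 1 side in both. All 12 markers were highest in MS_W75, the library with the highest Gnal, Gng7 and Rgs9. Of the 12, Isl1 in C_W64 and Gpr6 in C_O72 were listed at 0.0001 and the rest were above it in every library. When the scores of the striatal, olfactory bulb and cerebellar lists entered the fit as covariates, which was added once the data had been seen, the log2FC of MS_W over C_W was 0.37 for Gnal (SE 0.49), 0.33 for Gng7 (SE 0.41) and 0.25 for Rgs9 (SE 0.38), each with a limma adjusted p of 1. The part of the striatal markers in these differences was not tested.

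**Figure D2:**
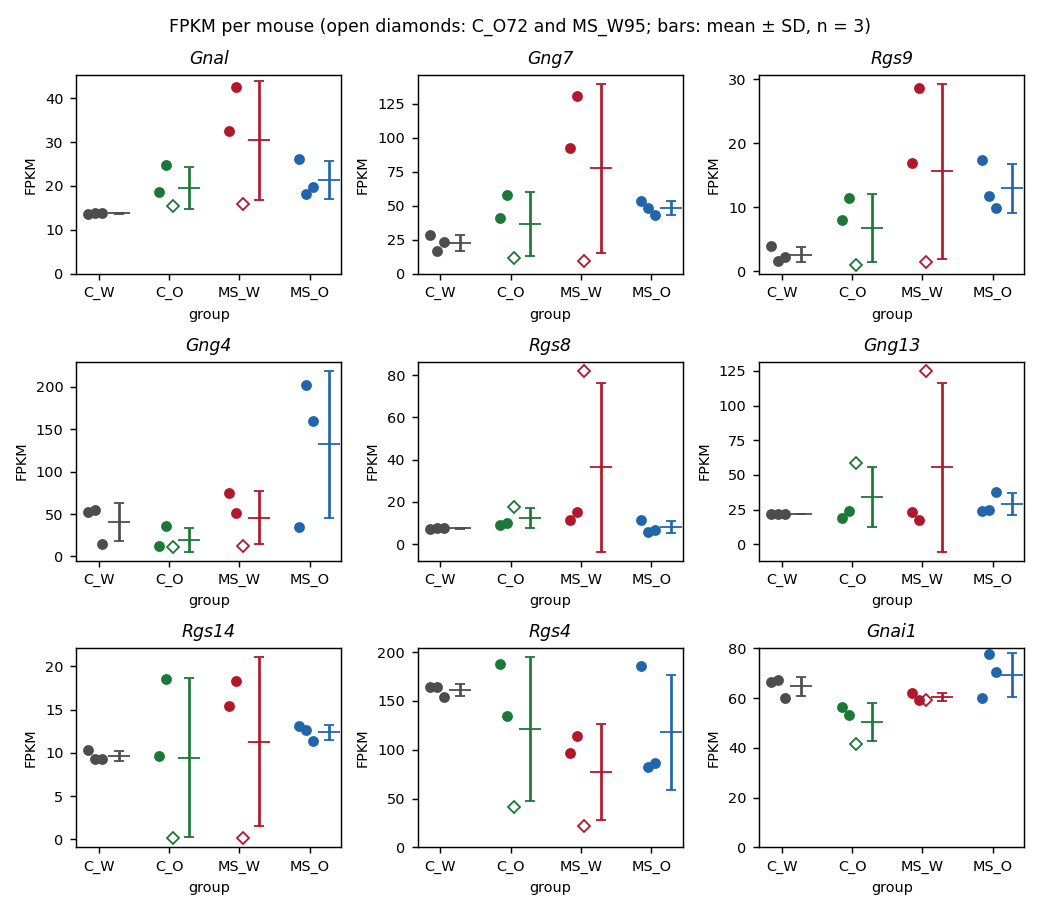
FPKM of 9 genes by group, with 1 point a mouse, bars for the mean ± SD of 3 mice and open diamonds for C_O72 and MS_W95. Gnal, Gng7 and Rgs9 are highest in MS_W75, Gng4 in MS_O46 and MS_O78, Rgs8 and Gng13 in MS_W95, and Rgs14 is near 0 in the 2 diamonds.

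Rgs10, an R12 protein known from microglia and neurons, was at 13.7, 13.3 and 13.03 FPKM in C_W, 13.6, 12.6 and 22.4 in C_O, 21.3, 18.6 and 14.8 in MS_W, and 14.8, 14.4 and 13.5 in MS_O. All 3 MS_W mice exceeded all 3 C_W mice, and the highest value of the 12 was in C_O72. The log2FC was 0.41 (SE 0.19, limma adjusted p = 0.486) with 12 libraries and 0.54 (SE 0.082, limma adjusted p = 0.0233) with 10, against 0.06 (SE 0.73, limma adjusted p = 1) with the region scores. The 10 microglial markers summed to 154 to 198 in C_W and to 206, 206 and 115 in MS_W, and the highest sum, 219, was in MS_O78, where Rgs10 was among the lower values. The summed hypothalamic list of 14 genes was 149, 146 and 43.7 in MS_W and 6.92 to 17.0 in C_W. It was 6.12, 34.4 and 26.0 in C_O and 17.8, 54.8 and 77.2 in MS_O, and its part in the result was not tested.

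Of the inhibitory alpha subunits, Gnai2 was at 38.2, 32.4 and 34.0 FPKM in C_W, 33.1, 38.3 and 42.7 in C_O, 45.2, 45.3 and 43.8 in MS_W, and 34.9, 42.4 and 46.7 in MS_O. The 3 MS_W mice lay within 2 FPKM of each other and above all C_W mice. Its log2FC was 0.36 (SE 0.13, limma adjusted p = 0.385) with 12 libraries and 0.37 with 10 (limma adjusted p = 0.230), and with the region scores as covariates it was 0.02 (SE 0.36, limma adjusted p = 1).

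Gnb4, a beta subunit of restricted expression, was at 2.20, 2.43 and 1.83 FPKM in C_W, 1.66, 5.01 and 1.63 in C_O, 4.31, 4.56 and 3.17 in MS_W, and 3.62, 3.42 and 3.53 in MS_O. MS_W exceeded C_W without overlap, and the highest single value was in C_O30. Its log2FC was 0.66 (SE 0.28, limma adjusted p = 0.451) and turned to -0.20 with the region scores as covariates (limma adjusted p = 1).

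Rgs3, a larger R4 protein, was at 3.02, 2.72 and 2.58 FPKM in C_W, 2.26, 3.32 and 5.32 in C_O, 4.18, 3.67 and 7.45 in MS_W, and 2.96, 5.43 and 3.81 in MS_O. The highest value of the 12 was in MS_W95, and MS_W lay above C_W in all mice. Its log2FC was 0.64 (SE 0.28, limma adjusted p = 0.468) with 12 libraries and 0.38 with 10 (limma adjusted p = 0.415), against 0.02 (SE 0.49, limma adjusted p = 1) with the covariates.

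Rgs13, known from mast cells and B cells, was listed at 0.0001, 0.0001 and 0.0801 FPKM in C_W, 0.0001, 0.106 and 0.0001 in C_O, 0.246, 0.274 and 0.0980 in MS_W, and 0.0827, 0.302 and 0.0976 in MS_O. These values are close to no expression, and the log2FC of 0.23 (SE 0.090, limma adjusted p = 0.427) is on the log2(FPKM + 1) scale, which understates the change of low genes. Rgs13 passed the limit of 0.1 FPKM for testing only through the CUMS groups. Its group means were 0.206 in MS_W and 0.161 in MS_O, against 0.0268 in C_W and 0.0354 in C_O. Its place in the counts of MS_W against C_W is therefore no support for a change.

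Rgs6, an R7 protein that acts on Gi and Go, was the only member lower in MS_W than in C_W at an unadjusted p under 0.05. It was at 5.59, 6.10 and 5.42 FPKM in C_W, 6.43, 4.79 and 1.51 in C_O, 2.93, 2.89 and 2.45 in MS_W, and 5.99, 3.78 and 4.43 in MS_O. All 3 MS_W mice lay below all other libraries except C_O72, which was the lowest of the 12. The log2FC was -0.84 (SE 0.32, limma adjusted p = 0.425) with 12 libraries and -0.78 (SE 0.17, limma adjusted p = 0.0785) with 10, and it was -0.04 (SE 0.90, limma adjusted p = 1) with the region scores as covariates. Its partner Gnb5 was not lower in MS_W31 and MS_W75, at 59.6 and 60.5 FPKM against 39.9 to 50.9 in C_W, and was at 30.2 in MS_W95.

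**Figure D3:**
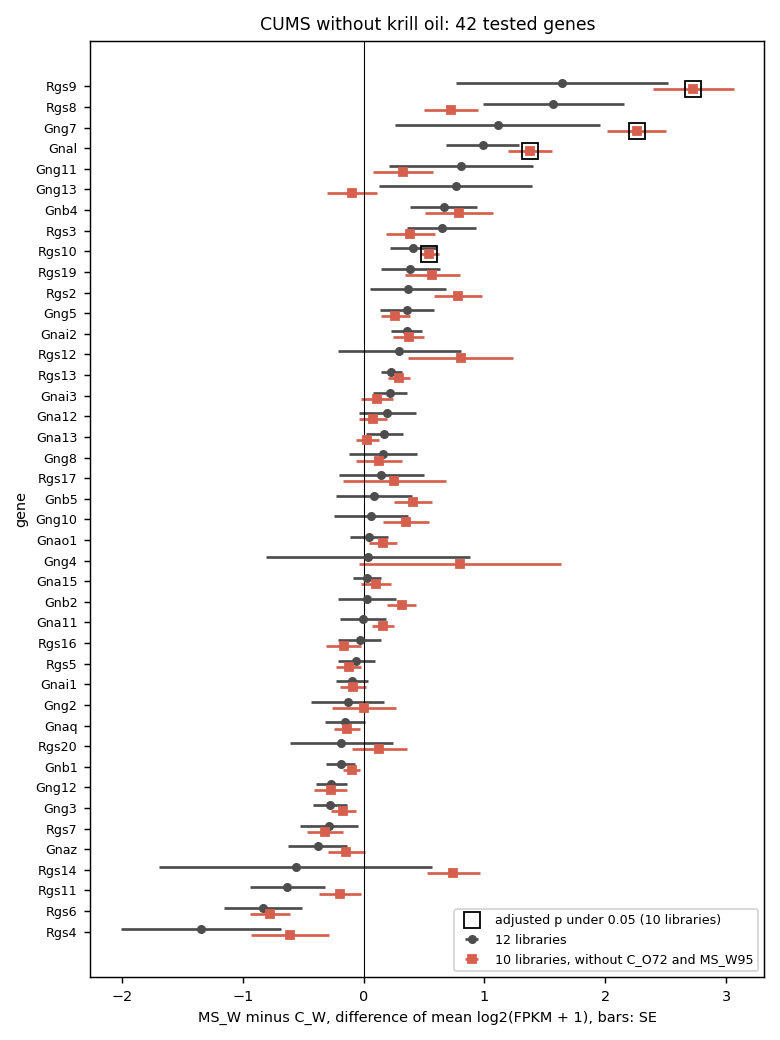
Difference of mean log2(FPKM + 1) between MS_W and C_W for the 42 tested genes, with bars for the SE, from 12 libraries (circles) and from 10 libraries (squares), and with a black frame at an adjusted p under 0.05. Gng7, Rgs9, Gnal and Rgs10 carry the frame, and Rgs8, Gng13 and Rgs14 move most between the fits apart from Gng7 and Rgs9.

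Several members were at their highest or lowest in C_O72 and MS_W95. Rgs8 (ENSMUSG00000042671, chromosome 1, 153653025 to 153700323, plus strand), a regulator known from Purkinje cells of the cerebellum, was at 7.34, 7.90 and 7.67 FPKM in C_W, 9.31, 10.3 and 17.7 in C_O, 11.4, 15.4 and 82.1 in MS_W, and 11.3, 5.93 and 6.85 in MS_O. MS_W95 exceeded the next library by more than 4 times, and without it the MS_W mice still lay above the C_W mice. The log2FC of MS_W over C_W was 1.57 (SE 0.58, limma adjusted p = 0.401) with 12 libraries and 0.72 (SE 0.23, limma adjusted p = 0.187) with 10, and 0.53 with the region scores (limma adjusted p = 1). With DESeq2 on the estimated counts it was 2.12 with an adjusted p of 0.0337, the only call of a member by that tool.

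Gng13, named here after its values were seen, encodes a gamma subunit of taste and olfactory cells and was at 21.5, 21.7 and 21.6 FPKM in C_W, 18.7, 24.2 and 58.7 in C_O, 23.5, 17.2 and 125 in MS_W, and 23.9, 24.5 and 37.8 in MS_O. As for Rgs8, MS_W95 was the highest library and C_O72 the next. Its log2FC was 0.76 (SE 0.63, limma adjusted p = 0.657) with 12 libraries and -0.10 (SE 0.21, limma adjusted p = 0.868) with 10. All 13 cerebellar markers were highest in MS_W95, and their part in the levels of Rgs8 and Gng13 was not tested.

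The promoters of these 2 genes are shown as a pair that was high together in the same libraries (Rgs8 at chr1:153652787-153653036, plus strand, Gng13 at chr17:25716922-25717171, plus strand, capitals as above).
Rgs8: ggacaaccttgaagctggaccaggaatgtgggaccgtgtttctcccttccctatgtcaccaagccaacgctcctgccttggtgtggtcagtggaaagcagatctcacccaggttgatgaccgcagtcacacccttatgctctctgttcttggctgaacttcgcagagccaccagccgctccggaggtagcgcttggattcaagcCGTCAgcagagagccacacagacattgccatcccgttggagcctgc
Gng13: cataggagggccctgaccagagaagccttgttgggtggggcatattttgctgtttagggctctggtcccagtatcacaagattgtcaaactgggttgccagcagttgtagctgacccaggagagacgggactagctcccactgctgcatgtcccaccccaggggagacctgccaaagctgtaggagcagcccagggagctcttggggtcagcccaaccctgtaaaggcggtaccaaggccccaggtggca
Rgs8 held 1 CRE core and no GC box, and the window of Gng13 held neither motif.

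Rgs14, an R12 protein known from the CA2 field of the hippocampus, varied most of all members with a mean of at least 1 FPKM, with an SD of 1.42 on the log2(FPKM + 1) scale. It was at 10.4, 9.24 and 9.33 FPKM in C_W, 9.64, 18.5 and 0.115 in C_O, 15.4, 18.3 and 0.175 in MS_W, and 13.1, 12.6 and 11.4 in MS_O. Only C_O72 and MS_W95 were below 1, and the other 10 libraries held 9.24 or more. In the 10 libraries MS_W31 and MS_W75 were above all C_W mice. The log2FC there was 0.74 (SE 0.22, limma adjusted p = 0.165), and with 12 libraries it was -0.56 (SE 1.13, limma adjusted p = 0.856). The hippocampal list of 10 genes summed to 45.4 and 39.1 FPKM in C_O72 and MS_W95 and to 44.1 to 136 elsewhere. The 6 libraries with the highest sums were also the 6 with the highest Rgs14, while C_W64, C_W70 and C_O15, with Rgs14 at 9.24 to 9.64 FPKM, had sums of 44.1 to 46.04, close to that of C_O72. Of the list, Wfs1, Spink8 and Fibcd1 were lowest in C_O72 and MS_W95, while Prox1 was highest there, at 3.54 and 4.76 FPKM against 0.756 to 1.74. Of the 10 genes, 2 were highest of the 12 libraries in C_O72 and 1 in MS_W95. The part of the hippocampal genes in the level of Rgs14 was not tested.

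Rgs4, also named after its values were seen, was at 164, 165 and 154 FPKM in C_W, 187, 135 and 41.6 in C_O, 96.8, 114 and 21.7 in MS_W, and 186, 81.8 and 86.0 in MS_O. The lowest 2 libraries were C_O72 and MS_W95, and MS_W31, MS_W75, MS_O46 and MS_O78 came next, the same 6 libraries that held the lowest sums of the 13 cortical markers (186 to 425). All 3 MS_W mice were below all 3 C_W mice. The log2FC was -1.35 (SE 0.66, limma adjusted p = 0.498) with 12 libraries and -0.61 (SE 0.32, limma adjusted p = 0.418) with 10, and the part of the cortical markers in it was not tested.

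Gng11, named for the same reason, was at 8.78, 4.36 and 7.35 FPKM in C_W, 7.97, 5.27 and 35.6 in C_O, 8.88, 8.15 and 25.0 in MS_W, and 7.84, 8.78 and 7.55 in MS_O, so that C_O72 and MS_W95 exceeded all others by more than 2 times. The sum of the 11 endothelial and pericyte markers was 134 in C_O72, 96.8 in MS_W95 and 66.7 to 114 elsewhere, and its part in the level of Gng11 was not tested. Gna12 was likewise highest in these libraries, at 44.7 in C_O72 and 32.7 in MS_W95 against 20.3 to 26.7 in the others, beside oligodendrocyte sums of 1444 and 793 against 298 to 583. Astrocyte sums were also highest there, at 776 and 693 against 299 to 367, as were those of the cerebellar, hindbrain and thalamic lists. The part of any of these lists in the level of Gna12 was not tested.

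The second question was whether CUMS changed the members in mice on krill oil, by MS_O against C_O. With 12 libraries no member passed the adjusted threshold (1 gene of 21393 did, 0.00467%), and the smallest adjusted p was 0.479. At an unadjusted p under 0.05, 3 members (7.14%) were called, against 8.88% of all tested genes. All 3 were higher (6.69% of all genes) and none was lower (2.18% of all genes). The groups did not overlap for 2 members, against 12.2% of all genes. Both were higher (8.9% of all genes) and none was lower (3.29% of all genes). In 10 libraries 6 members (14.3%) had an unadjusted p under 0.05, against 13.6% of all genes. Of them 5 were higher (9.62% of all genes) and 1 was lower (3.99%), and none passed the adjusted threshold, as 0.014% of all genes did.

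Gnai1 was at 66.6, 67.4 and 60.2 FPKM in C_W, 56.5, 53.2 and 41.7 in C_O, 62.2, 59.4 and 59.4 in MS_W, and 60.0, 77.6 and 70.4 in MS_O. All 3 MS_O mice exceeded all 3 C_O mice, and C_O72 was the lowest library of the 12. The log2FC was 0.45 (SE 0.13, limma adjusted p = 0.479) with 12 libraries and 0.33 (SE 0.11, limma adjusted p = 0.335) with 10, and 0.30 with the region scores (limma adjusted p = 0.969). Gnai3 was at 8.72, 8.47 and 8.48 FPKM in C_W, 7.16, 7.71 and 8.74 in C_O, 9.58, 9.07 and 11.8 in MS_W, and 8.46, 12.3 and 10.9 in MS_O, with MS_O46 and MS_O78 above the C_O mice and MS_O13 inside their range. Its log2FC was 0.37 (SE 0.14, limma adjusted p = 0.504) and 0.23 with the region scores (limma adjusted p = 0.969).

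Gng4 (ENSMUSG00000021303, chromosome 13, 13784059 to 13827896, plus strand) had the widest range of the gamma subunits, at 52.7, 54.3 and 14.8 FPKM in C_W, 12.5, 35.4 and 10.7 in C_O, 74.7, 51.0 and 11.9 in MS_W, and 34.6, 202 and 159 in MS_O. MS_O46 and MS_O78 were more than 2 times above any other library, while MS_O13 was below C_O30, so MS_O and C_O overlapped. The log2FC of MS_O over C_O was 2.55 (SE 0.84, limma adjusted p = 0.479) with 12 libraries and 2.24 (SE 0.84, limma adjusted p = 0.343) with 10, and it no longer had an unadjusted p under 0.05 without MS_O46. With the region scores as covariates it turned to -0.23 (limma adjusted p = 0.969).

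The 13 olfactory bulb markers (Dlx1, Dlx2, Sp8, Sp9, Tbx21, Eomes, Cdhr1, Doc2g, Pbx3, Th, Synpr, Meis2 and Omp) summed to 422 in MS_O46 and 427 in MS_O78, and to 23.6 to 181 elsewhere. Each of the 13 was highest in 1 of these 2 libraries, 7 in MS_O46 and 6 in MS_O78. Within the groups, C_W70, with a Gng4 of 14.8 FPKM, had a marker sum of 26.7, against 111 and 127 in C_W1 and C_W64. Dlx2 in C_O72 was listed at 0.0001, and the part of the bulb markers in the level of Gng4 was not tested. Rgs12, an R12 protein named after its values were seen, shared this order at the top, at 3.45, 4.84 and 2.24 FPKM in C_W, 2.94, 7.72 and 2.09 in C_O, 6.07, 7.27 and 1.66 in MS_W, and 4.88, 12.8 and 9.08 in MS_O.

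The promoters of Gng4 and Rgs12 are shown as the pair that was highest in these 2 libraries (Gng4 at chr13:13783809-13784058, plus strand, Rgs12 at chr5:34949198-34949447, plus strand, capitals as above).
Gng4: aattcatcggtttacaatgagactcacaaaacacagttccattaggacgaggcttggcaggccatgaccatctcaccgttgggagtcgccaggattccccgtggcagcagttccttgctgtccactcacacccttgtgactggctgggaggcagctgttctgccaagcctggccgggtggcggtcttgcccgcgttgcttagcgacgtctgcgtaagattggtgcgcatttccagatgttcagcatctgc
Rgs12: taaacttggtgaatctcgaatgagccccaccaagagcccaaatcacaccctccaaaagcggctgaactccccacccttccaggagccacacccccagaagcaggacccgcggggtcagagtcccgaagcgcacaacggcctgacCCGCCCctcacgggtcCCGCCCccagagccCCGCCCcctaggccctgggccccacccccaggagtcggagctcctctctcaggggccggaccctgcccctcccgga
Rgs12 held 3 GC boxes and Gng4 none, and neither held a CRE core.

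**Figure D4:**
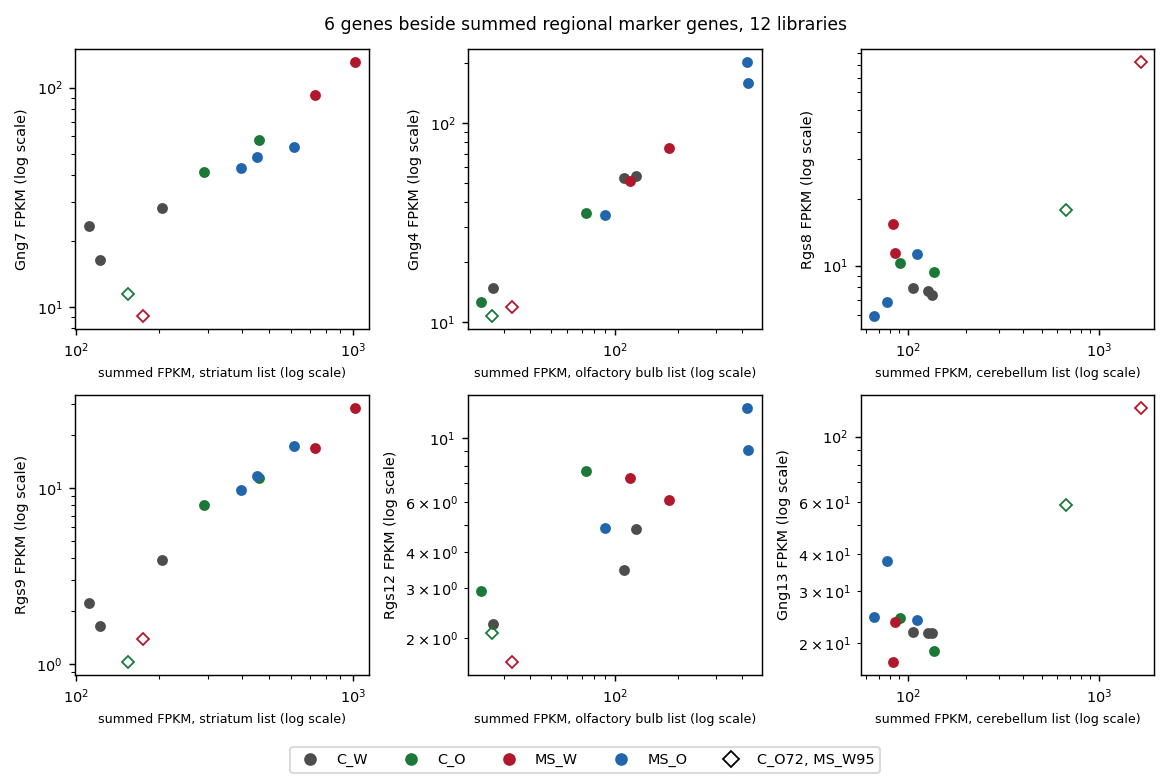
FPKM of 6 genes against the summed FPKM of the striatal (Gng7, Rgs9), olfactory bulb (Gng4, Rgs12) or cerebellar (Rgs8, Gng13) marker list, with 1 point a library coloured by group and both axes on a log scale. Gng7, Rgs9 and Gng4 are high in the libraries with the highest sums of their list, at up to 131, 28.6 and 202 FPKM. The lowest Gng7, 9.11 in MS_W95, and the lowest Rgs9, 1.03 in C_O72, do not lie at the lowest striatal sums. Of the striatal list, Drd1 and Rasd2 were lower in C_O72 and MS_W95 than in any other library. The lowest Gng4, 10.7 in C_O72, lies at a bulb sum of 26.5, close to the lowest sum, 23.6 in C_O15. Rgs8 and Gng13 are set apart by C_O72 and MS_W95 only.

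The third question was whether krill oil changed the members. In unstressed mice, C_O against C_W, none passed the adjusted threshold with 12 libraries, where 0 of 21393 genes did, and 1 member (2.38%) had an unadjusted p under 0.05, against 3.55% of all genes (1.51% higher and 2.04% lower). By DESeq2 and edgeR no member passed the adjusted threshold here either. That member was Gnai1, lower in all 3 C_O mice than in any C_W mouse. Its log2FC was -0.36 (SE 0.13, limma adjusted p = 0.908) and, without C_O72 and MS_W95, -0.23 (limma adjusted p = 1), and with the region scores -0.08 (limma adjusted p = 1). The groups did not overlap for 3 members, against 9.42% of all genes, with 2 higher (4.08% of all genes) and 1 lower (5.34%).

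In the 10 libraries C_O exceeded C_W for Gnal, Gng7, Rgs9 and Rgs19 at an unadjusted p under 0.05 (9.52%, against 4.06% of all genes, 1.84% higher and 2.22% lower), with log2FC of 0.61, 1.11, 1.61 and 0.56 and adjusted p of 0.855 to 1 by limma. C_O15 and C_O30, the 2 mice left, also had striatal marker sums above those of every C_W mouse.

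In stressed mice, MS_O against MS_W, 2 members (4.76%) had an unadjusted p under 0.05, against 6.09% of all genes. Both were lower (3.46% of all genes) and none was higher (2.63%), and none passed the adjusted threshold (1 gene did, 0.00467%). Rgs8 had a log2FC of -1.55 (SE 0.58, limma adjusted p = 0.790) with 12 libraries and -0.70 (limma adjusted p = 0.433) without C_O72 and MS_W95, and its MS_O and MS_W mice did not overlap. With the region scores the log2FC was -0.47 for Rgs8 and -0.46 for Rgs17, both with a limma adjusted p of 1. Rgs17, of the RZ class, was at 4.87, 4.72 and 5.44 FPKM in C_W, 4.58, 5.18 and 5.10 in C_O, 6.22, 6.10 and 4.72 in MS_W, and 4.99, 0.835 and 4.12 in MS_O. MS_O46 held the lowest value by far, and the log2FC of -0.79 (SE 0.35, limma adjusted p = 0.815) was -0.26 without that mouse. The groups did not overlap for 3 members, against 12.3% of all genes, with 2 higher (4.64% of all genes) and 1 lower (7.66%).

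In the 10 libraries 7 members (16.7%) had an unadjusted p under 0.05, against 8.54% of all genes. In MS_O 6 were lower (5.27% of all genes) and 1 was higher (3.28%), and none passed the adjusted threshold, as 0.271% of all genes did. Lower were Rgs10 (-0.46, adjusted p = 0.0889 by limma), Gng7 (-1.17), Gnal (-0.79), Rgs2 (-0.70), Rgs8 (-0.70) and Gnao1 (-0.29), and Rgs6 was higher (0.53). MS_O against MS_W and MS_W against C_W share the MS_W mice, so the opposite signs of these genes in the 2 comparisons are not independent.

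The last question was whether the effect of CUMS differed with krill oil, tested as the interaction. With 12 libraries 3 members (7.14%) had an unadjusted p under 0.05, against 7.23% of all genes. The interaction was positive for 2 (3.6% of all genes) and negative for 1 (3.63%), and none passed the adjusted threshold, where 0 of 21393 genes did, nor did a member by DESeq2 or edgeR. Gnai1 had an interaction of 0.55 (SE 0.19, limma adjusted p = 0.665), Rgs8 of -2.14 (SE 0.82, limma adjusted p = 0.665) and Rgs6 of 1.09 (SE 0.46, limma adjusted p = 0.665). With the region scores as covariates these were 0.006, -0.20 and 0.59, each with a limma adjusted p of 1. In the 10 libraries 10 members (23.8%) had an unadjusted p under 0.05, against 7.51% of all genes. It was positive for 2 (3.19% of all genes) and negative for 8 (4.32%), and 0.145% of all genes but no member passed the adjusted threshold. The smallest adjusted p was 0.0729 by limma, for Gng7 at -2.28.

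The make-up of the gamma subunits differed widely between mice. Gng3 held a median of 43.6% of the summed gamma FPKM, from 28.4% in MS_O46 to 50.4% in C_W70. Gng4 held 3.48% in MS_W95 and 41.7% in MS_O46, where it exceeded Gng3, and Gng7 held 2.67% in MS_W95 and 30.9% in MS_W75. Gng13 reached 36.6% in MS_W95, where it was the first of the family, and had a median of 6.49%. In the Rgs family Rgs4 held from 11.9% in MS_W95 to 61.7% of the sum, and Rgs8 from 2.69% in C_W1 to 44.8% in MS_W95.

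**Figure D5:**
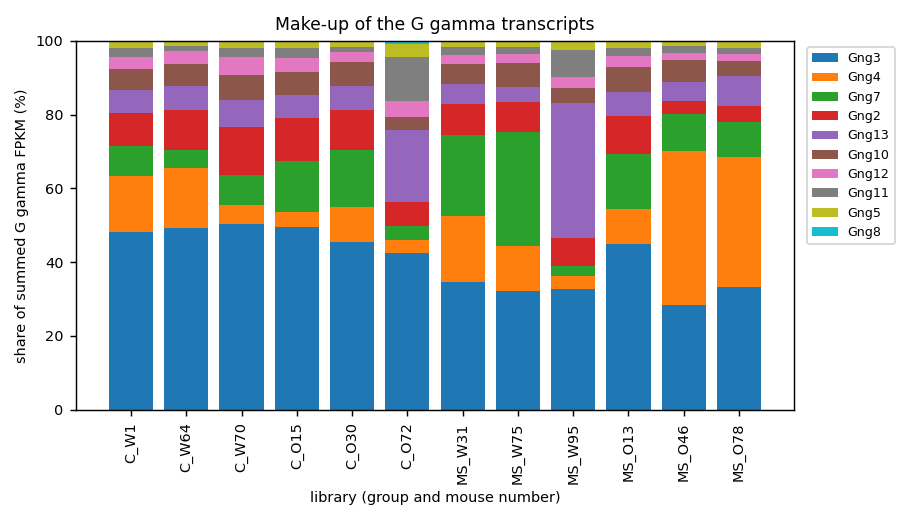
Share of each gamma subunit gene in the summed gamma FPKM of a library, in percent, with 1 stacked bar a library. Gng4 takes the first place in MS_O46 and MS_O78, Gng13 in MS_W95, and Gng3 in every other library.

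The partners of G proteins were read from a list of 37 symbols of chaperones, other subunits, receptor kinases, arrestins, GIRK channels, phospholipases and exchange factors, of which 35 were in the table and 31 were tested. In MS_W against C_W, 3 were higher and 1 lower at an unadjusted p under 0.05 (12.9%) with 12 libraries, against 10.5% of all tested genes (6.71% higher and 3.79% lower), and none passed the adjusted threshold. The median log2FC of the list was -0.02, against 0.06 over all tested genes. In 10 libraries 8 had an unadjusted p under 0.05, 4 in each direction, against 15.4% of all tested genes (9.66% higher and 5.69% lower). Ric8b and Kcnj5 rose past the adjusted threshold, as 1.15% of all tested genes passed it.

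Ric8b, the chaperone that Golf and Gs alpha subunits need, was at 8.45, 8.19 and 9.02 FPKM in C_W, 10.4, 12.3 and 11.5 in C_O, 16.1, 17.1 and 12.2 in MS_W, and 11.8, 10.8 and 10.04 in MS_O. All 3 MS_W mice exceeded all C_W mice, and MS_W95 was lower than the other MS_W mice as it was for Gnal. Its log2FC was 0.74 (SE 0.13, limma adjusted p = 0.112) with 12 libraries and 0.88 (SE 0.097, limma adjusted p = 0.00637) with 10. MS_O minus MS_W was -0.43 (SE 0.13, limma adjusted p = 0.695), and the interaction was -0.80 (SE 0.18, limma adjusted p = 0.455). Ric8b was highest in MS_W75 and MS_W31, which also had the highest striatal marker sums, 1024 and 729. In MS_W95 that sum was 176, and in C_W it was 111 to 205. The part of the striatal markers in these values was not tested. Unlike for the members, no fit with the region scores is given for Ric8b or Kcnj5.

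Kcnj5, a GIRK channel subunit, was at 0.137, 0.153 and 0.161 FPKM in C_W, 0.0533, 0.214 and 0.124 in C_O, 0.849, 0.622 and 0.473 in MS_W, and 0.215, 0.186 and 0.142 in MS_O. The 3 MS_W mice lay above all other libraries, at less than 1 FPKM. Its log2FC over C_W was 0.51 (SE 0.089, limma adjusted p = 0.121) with 12 libraries and 0.59 (SE 0.084, limma adjusted p = 0.0172) with 10, and MS_O minus MS_W was -0.47 (SE 0.089, limma adjusted p = 0.258).

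The other GIRK genes had log2FC below 0 in both fits, with adjusted p by limma of 0.471 to 0.486 and of 0.109 to 0.117. Kcnj3 was at -0.55 with 12 libraries and -0.56 with 10, Kcnj6 at -0.65 and -0.59, and Kcnj9 at -0.81 and -0.97. Kcnj3 was at 6.70, 8.88 and 7.37 FPKM in C_W, 8.63, 6.84 and 3.31 in C_O, 5.38, 4.33 and 5.02 in MS_W, and 6.65, 7.36 and 7.20 in MS_O, and MS_W lay below C_W in all mice. The summed cortical markers were also lower there, at 287, 282 and 186 FPKM in MS_W against 651 to 688 in C_W. They were 647, 660 and 188 in C_O and 513, 354 and 425 in MS_O, and their part in these values was not tested. The receptor kinase gene Grk5 was higher in MS_W than in C_W (0.39, limma adjusted p = 0.425) and lower in MS_O than in MS_W (-0.42, limma adjusted p = 0.790).

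In MS_O against C_O, 2 of the 31 tested partners (6.45%) had an unadjusted p under 0.05, against 8.88% of all tested genes. Both were higher (6.69% of all genes) and none was lower (2.18%). They were Gpsm1, which binds Gi alpha in its GDP form, and the arrestin gene Arrb1. Gpsm1 was at 18.7, 20.7 and 7.78 FPKM in C_W, 6.87, 13.05 and 13.4 in C_O, 23.7, 20.0 and 19.7 in MS_W, and 11.4, 50.0 and 51.5 in MS_O, and its 2 highest libraries, MS_O46 and MS_O78, were those of Gng4 and of the olfactory bulb markers. Its log2FC was 1.46 (SE 0.54, limma adjusted p = 0.501). Arrb1 was at 21.6, 22.2 and 4.33 FPKM in C_W, 5.12, 4.80 and 3.49 in C_O, 6.84, 17.1 and 17.4 in MS_W, and 5.38, 23.6 and 21.4 in MS_O, so that the mice of C_W, MS_W and MS_O each fell on both sides of 10 FPKM, and its log2FC was 1.49 (SE 0.65, limma adjusted p = 0.554). Gpsm2 was higher in MS_O than in MS_W (0.50, limma adjusted p = 0.815), and Gnas had an interaction of -0.67 (limma adjusted p = 0.665) with its highest value, 147 FPKM, in C_O72. In MS_O against MS_W, 4 partners (12.9%) had an unadjusted p under 0.05, 1 higher and 3 lower, against 2.63% and 3.46% of all genes. In the interaction it was 4 (12.9%), 1 positive and 3 negative, against 3.6% and 3.63% of all genes. With 12 libraries no partner passed the adjusted threshold in these comparisons.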

How the data were processed

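Members and lists were chosen with earlier results of these data known. One gene of the striatal marker list is not reported here and was left out of its sum and score. Deposited FPKM and estimated counts of 12 libraries were used, and no column was without a sample. The authors filtered paired-end reads (cutadapt 1.9), aligned them with HISAT2 2.0.4 to mm10 and estimated FPKM with StringTie 1.3.4d and Ballgown, per the study's methods and the submitters' processing notes. The estimated count values of the authors follow from coverage (1732 genes with 1 transcript, median deviation 0.0479%) and served only as an alternative. FPKM are relative to the RNA of each library, so a change of a few abundant genes shifts the others. Whether counting used the strand of the library is not given in the sources used here, and Gnal overlaps Chmp1b (9.29 FPKM, same strand), Gnaq overlaps Gm10819 (30.0, opposite) and Gng3 overlaps Bscl2 (12.5, opposite).

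Genes with a mean of at least 0.1 FPKM were fitted with limma 3.58.1 (trend) in R 4.3.3 on log2(FPKM + 1), in 1 fit of the 4 groups with 3 mice each, which share the estimate of the spread, with p adjusted over all 21393 genes by Benjamini and Hochberg. A log2FC understates the change of low genes. On simulated data for MS_W against C_W with 21393 genes, limma recovered 55% of the 2-fold and 87% of the 4-fold changes among 200 changed genes, with 7 false calls. The simulated noise was independent for each gene, and only genes with a mean log2(FPKM + 1) above 1 were changed. It held no shift shared by many genes as in C_O72 and MS_W95, so these figures need not hold for the real data. Mice are named by the labels and share no numbers between groups. Genes given with FPKM in every library were those with an unadjusted p under 0.05 in any comparison, an adjusted p under 0.05 in the 10 libraries, Gnal, Gng4 and Rgs8, and the 3 of largest SD (Rgs14, Gng4, Rgs9). Others are said to be chosen after their values were seen. Alternatives were a pseudocount of 0.1, no filter or a mean of at least 1 FPKM, median centring, quantile normalization, edgeR 4.0.16 and DESeq2 1.42.0 on rounded estimated counts, 10 libraries, each library left out, and, chosen after seeing the data, region scores as covariates. C_O72 and MS_W95, left out of the 10 libraries, were also picked by their values in these data. Start and end of 43 of 51 members match GENCODE M21, and promoters came from RefSeq. Figures were drawn with matplotlib 3.10.9 in Python 3.11.15.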

Additional observations from a re-analysis of the deposited data

How the results depend on the processing

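No paired analysis was possible because the groups share no mouse numbers. At an unadjusted p under 0.05, the counts of members that moved by over 1.5 times were, for the 10 libraries, 14 in MS_W against C_W, 6 in MS_O against C_O, 4 in C_O against C_W, 7 in MS_O against MS_W and 10 in the interaction. With region scores as covariates they were 1, 1, 0, 0 and 0 in the same order, of Rgs19 in MS_W against C_W (-1.04, against 0.39 without them) and Rgs9 in MS_O against C_O (0.41), neither of which was among those of the 12 libraries without covariates. Of the 42 members, 19, 20, 14, 15 and 17 had the opposite sign with the covariates, in the same order. With 12 libraries and 4 groups, the covariates leave few degrees of freedom. The striatal score was also higher in every MS_O mouse than in any C_W mouse. With the covariates the SE in MS_W against C_W was larger for Rgs10 and Rgs6 and smaller for Gng7 and Rgs9. A change of sign can thus lie within the SE. Among the 19 pairs of a named gene and a comparison below, Gnb4 (-0.20 in MS_W against C_W) and Gng4 (-0.23 in MS_O against C_O) reversed. DESeq2 gave 6 in the interaction, and a pseudocount of 0.1, median centring, quantile normalization and edgeR gave 1 in MS_O against MS_W. Leaving out single libraries gave 3 to 11 in MS_W against C_W (3 without C_W64, 4 without C_W70, 11 without C_O72), 1 to 7 in MS_O against C_O, 0 to 3 in C_O against C_W, 0 to 4 in MS_O against MS_W and 1 to 7 in the interaction. The adjusted count in MS_W against C_W, 0 with 12 libraries, was 4 with 10 libraries, 1 by DESeq2 (Rgs8) and 0 to 1 with single libraries left out (Gnal without MS_W95). The cause of these moves was not tested. With 2 mice in a group of the 10 libraries, those groups are assumed to vary like the others.

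For 19 pairs of a named gene and a comparison, the direction held in up to 21 alternatives apart from the 2 reversals above. Without C_O72 and MS_W95, 3 pairs moved past the threshold and 3 lost it, with the covariates 14 lost it, edgeR took it from 5 and median centring from 4. Counted over all pairs and all fits with a single library left out, it was lost 50 times and passed anew 5 times, and 173 results stayed the same. The depth of a library limits genes such as Rgs13, at 0.0001 to 0.302 FPKM.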
